A study of Lotus japonicus with 16 samples.

Results

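Low phosphate supply changed 293 genes of Lotus japonicus roots at both a high and a favorable growth temperature that were not listed as temperature-responsive in shoots. They were chosen from the authors' own lists of changed genes. A gene had to be listed in both root comparisons of low with sufficient phosphate (P) and in neither shoot comparison of high with favorable temperature. It also needed a base mean, the mean normalised count over the libraries compared, of at least 100 in each root comparison. These 293 genes were 54.1% of the 542 genes listed in both root comparisons and 7.40% of the 3958 genes listed anywhere in the series. The folds and adjusted p-values of both root comparisons therefore chose the genes, and they are given below as a description, with no test.

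The plants were of genotype MG-20, an accession of this model legume, and were kept in hydroponics for 3 weeks of treatment. Roots came from plants at 6.4 µM phosphate (low P) or 64 µM (sufficient P) in chambers held at 30 °C in the light and 29 °C in the dark, called the high temperature. The same supplies were given in chambers held at 23 °C in the light and 22 °C in the dark, called the favorable temperature. Whole shoots came from the same 4 treatments. Each of the 8 groups of tissue, supply and temperature held 2 libraries of whole tissue, and a replicate was a pool of 3 plants. All plants had 1 genotype, and the root was sequenced as a whole organ, so the values average over its cell types. In such bulk samples, fewer cells of a type and less RNA per cell cannot be told apart.

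Phosphate is poorly mobile in soil, and plants short of it raise its uptake, release phosphatases, replace phospholipids by lipids without phosphorus and change the growth of their roots. Many plant genes for these responses are switched on through transcription factors of the PHR family. The activity of these factors is held back by SPX proteins when phosphate is ample. Legume roots also carry genes for symbiosis with mycorrhizal fungi and nodule bacteria, some of which respond to phosphate. This is background only. The gene table used here gives each of the 293 genes a locus symbol and no function, so none of them is assigned to these roles.

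No shoot comparison of low with sufficient P was analysed here. Absence from the shoot lists says that a gene did not pass the authors' limits for temperature in shoots. Of the genes tested in shoots, 4.16% of 20438 were listed at low P and 8.28% of 20144 were listed at sufficient P. Absence there does not show that a phosphate response was limited to roots, and the genes are called phosphate-responsive root genes here for that reason. "Higher" and "lower" follow the authors' up-regulated and down-regulated columns, read as the state of low-P roots. The tables do not state that orientation, and if it were turned round, the levels given for low and sufficient P would be exchanged in every gene. Values per library were not used here and read depth is unknown, so each group's level is derived from the base mean and the fold. Levels are not corrected for gene length and are compared within a gene, not between genes. The smallest base mean among the 293 genes was 107 at the high temperature and 109 at the favorable temperature, and the largest were 25169 and 16626.

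Of the 293 genes, 169 were higher at low P at both temperatures, 122 were lower at both, and 2 changed in opposite directions. Listing itself was uncommon: at the high temperature 4.05% of the 20129 genes tested were listed (2.27% as higher and 1.78% as lower). At the favorable temperature 10.1% of 20175 genes were listed (4.67% as higher and 5.46% as lower). Since the rule required listing, nothing is read from the counts of the 293 genes against these shares. As a description, genes higher at low P made up 57.7% of the set at both temperatures, against 56.0% of all listed root genes at the high temperature and 46.1% at the favorable one. With the orientation turned round, these shares would be 41.6%, 44.0% and 53.9%.

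**Figure D1:**
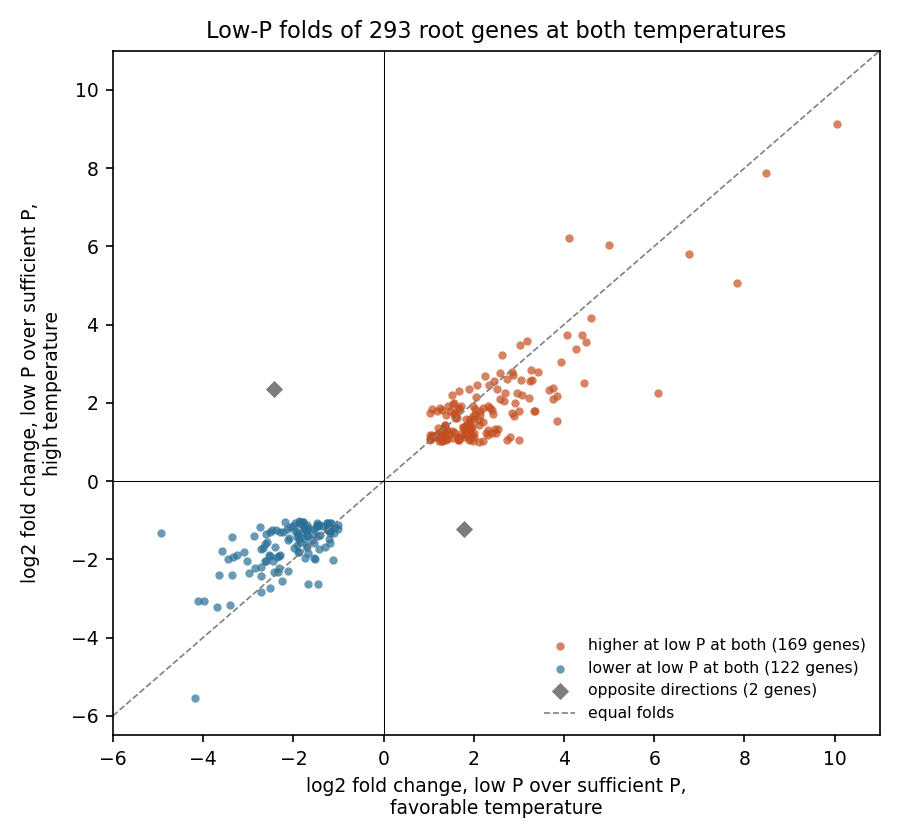
Log2 fold change of low P over sufficient P at the high temperature (vertical axis) against that at the favorable temperature (horizontal axis) for the 293 genes, 1 point per gene, coloured by direction, with a dashed line at equal folds. The 169 genes higher at low P and the 122 lower lie mostly nearer to 0 at the high temperature than the line, and 2 diamonds mark genes with opposite directions; the empty bands around 0 come from the authors' fold limit of 2.

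The log2 folds of the genes higher at low P ran from 1.00 to 9.12 at the high temperature and from 1.02 to 10.06 at the favorable one in the authors' deposited tables. Their median log2 fold change in the authors' deposited tables was 1.54 at the high temperature and 1.92 at the favorable temperature, which are 2.91-fold and 3.78-fold. Most were moderate: 122 of 169 were under 4-fold at the high temperature, 94 were at the favorable temperature, and 90 were under 4-fold at both. In contrast, 43 reached 4-fold at both temperatures, 14 had a log2 fold of at least 3 and 4 a log2 fold of at least 5. The derived level of these 169 genes had a median of 679 normalised counts in low-P roots and 182 in sufficient-P roots at the high temperature. At the favorable temperature the medians were 721 in low-P roots and 163 in sufficient-P roots.

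LOC130729492 had the largest mean rise. Its derived level was 826 normalised counts at low P and 1.48 at sufficient P in warm roots, and 1021 at low P and 0.957 at sufficient P at the favorable temperature. Sufficient-P roots thus held close to 1 normalised count of it at either temperature. Its log2 fold change in the authors' deposited tables was 9.12 (SE 0.87, DESeq2 adjusted p = 6.56e-23) at the high temperature and 10.06 (SE 1.07, adjusted p = 2.12e-18) at the favorable one. Its sufficient-P level in the favorable-temperature table was under 1 normalised count. That last fold therefore depends on the fit and is no ratio of measured counts. At 1.48 the level in warm roots was also low, so the fold there depends on the fit as well.

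LOC130743134 showed a like pattern. It stood at 582 normalised counts in low-P roots and 2.47 in sufficient-P roots at the high temperature, and at 837 and 2.34 at the favorable temperature in the same order of supply. The authors' deposited tables give it log2 fold changes of 7.88 (SE 0.70) and 8.48 (SE 0.73) at the high and the favorable temperature, a difference smaller than either standard error. Among all genes listed as higher, it ranked 8 by fold in the high-temperature table and 11 in the favorable-temperature table, while LOC130729492 ranked 5 and 3. The sufficient-P levels of LOC130743134 were also low, so its folds depend on the fit as well.

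LOC130738722 had the smallest adjusted p of the set at both temperatures. Derived levels were 2843 normalised counts at low P and 50.9 at sufficient P in warm roots, and 2469 at low P and 22.6 at sufficient P at the favorable temperature. Its log2 fold was 5.80 (SE 0.26, DESeq2 adjusted p = 2.09e-105) at the high temperature and 6.77 (SE 0.39, adjusted p = 6.94e-63) at the favorable temperature, per the authors' deposited tables. LOC130739606 completes the 4 genes with log2 folds of at least 5 at both temperatures. It reached 806 normalised counts at low P against 24.1 at sufficient P in warm roots, and 1077 against 4.74 at the favorable temperature.

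LOC130711540 and LOC130748949 were those of the 9 largest risers with the larger fold in the heat. For LOC130711540 the derived level was 837 normalised counts at low P and 12.7 at sufficient P at the high temperature, and 1184 at low P and 37.3 at sufficient P at the favorable one. Across the separately normalised tables both of its levels were therefore lower in the heat, the sufficient-P level by more. LOC130748949 likewise had 434 normalised counts at low P and 5.85 at sufficient P in warm roots, and 679 at low P and 39.1 at sufficient P at the favorable temperature. Log2 fold changes in the authors' deposited tables were 6.04 (SE 0.40) and 4.99 (SE 0.39) for LOC130711540, high temperature before favorable, and 6.21 (SE 0.52) and 4.12 (SE 0.46) for LOC130748949.

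For LOC130726727 and LOC130729595 the log2 folds differed by -0.43 (combined SE 0.58) and -0.67 (combined SE 0.61), high minus favorable temperature. The authors' deposited tables list LOC130726727 at 4.17 (SE 0.44) in warm roots and 4.60 (SE 0.37) at the favorable temperature, and LOC130729595 at 3.73 (SE 0.42) and 4.40 (SE 0.44), on the log2 scale. LOC130729595 had 1255 normalised counts at low P and 94.6 at sufficient P in warm roots, and 2817 at low P and 133 at sufficient P at the favorable temperature. In LOC130726727 the sufficient-P level was 24.0 in the high-temperature table and 26.6 in the favorable-temperature one, below low-P levels of 432 and 645.

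**Figure D2:**
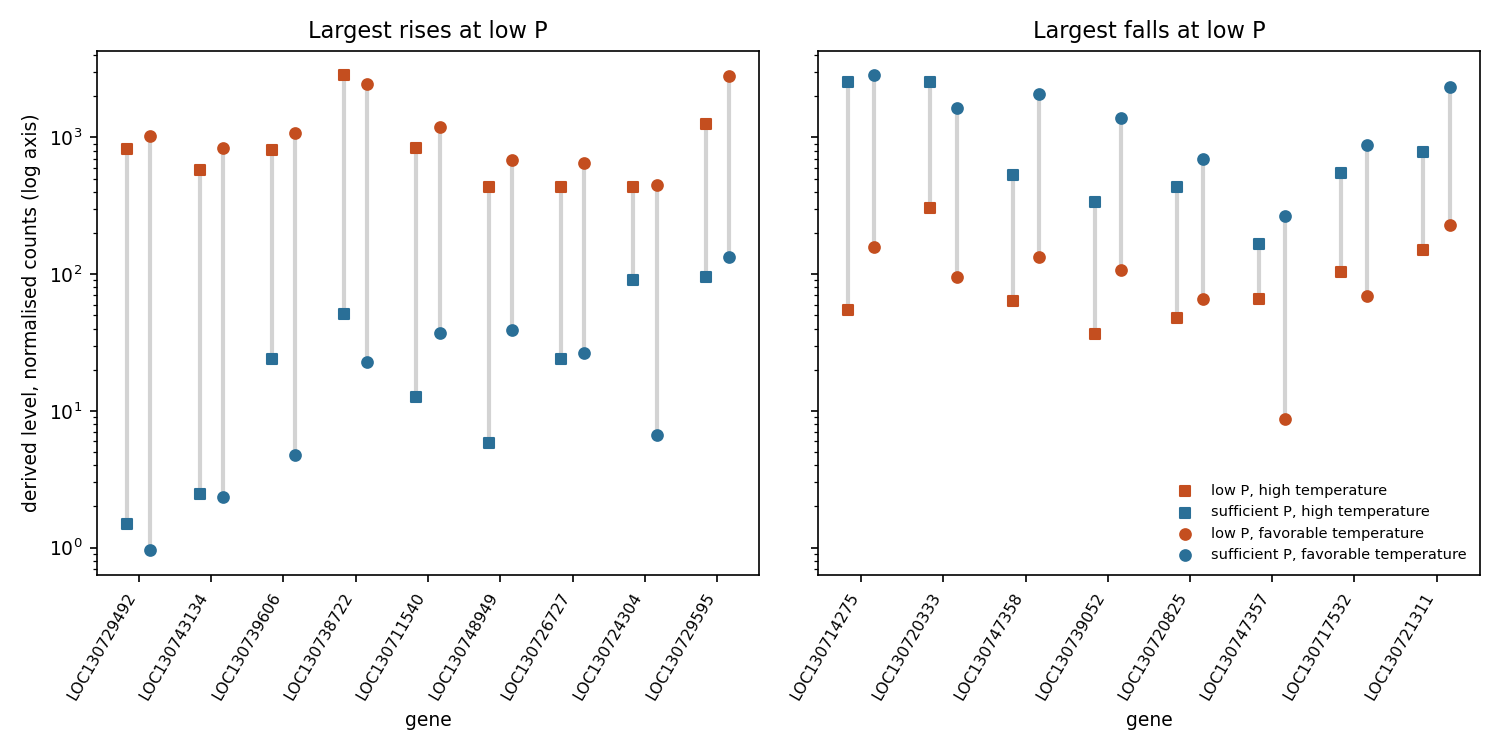
Derived level in normalised counts (log axis) of the genes with the largest mean rises (left) and falls (right) at low P, with low P and sufficient P joined by a grey line at the high temperature (squares) and at the favorable temperature (circles). Levels at low P stood at 432 or more in all 9 rising genes, while sufficient-P levels ran from 0.957 to 133; there are no error bars because no values per library are in the tables.

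The log2 folds of the genes lower at low P ran from -5.54 to -1.03 at the high temperature and from -4.93 to -1.01 at the favorable one in the authors' deposited tables. The median log2 fold change in the authors' deposited tables was -1.44 at the high temperature and -1.89 at the favorable temperature, falls of 2.72-fold and 3.70-fold. Of these 122 genes, 22 fell at least 4-fold at both temperatures and 5 had a log2 fold of -3 or lower at both. Median derived levels were 363 normalised counts at low P and 1129 at sufficient P in warm roots, and 424 at low P and 1736 at sufficient P at the favorable temperature. None of them had a derived level under 1 normalised count in either table, and the lowest was 8.73.

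LOC130714275 had the largest mean fall and the least precise one. It stood at 54.4 normalised counts at low P and 2536 at sufficient P in warm roots, and at 159 at low P and 2882 at sufficient P at the favorable temperature. Its log2 fold changes of -5.54 (SE 1.63, DESeq2 adjusted p = 0.017) and -4.18 (SE 1.25, adjusted p = 0.0101) at the high and favorable temperature carry the largest standard errors among the falling genes in the authors' deposited tables. The median standard error of the falling genes was 0.33 at the high temperature and 0.43 at the favorable one.

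LOC130720333 fell with much smaller error. Levels were 304 normalised counts at low P and 2555 at sufficient P in warm roots, and 95.0 at low P and 1636 at sufficient P at the favorable temperature. The authors' deposited tables give log2 fold changes of -3.07 (SE 0.21, DESeq2 adjusted p = 5.53e-46) and -4.11 (SE 0.32, adjusted p = 1.53e-34) at the high and favorable temperature. Both levels of this gene were higher in the high-temperature table; among the 122 falling genes the sufficient-P level was higher there in 22.

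LOC130739052 and LOC130720825 complete, with LOC130747358, the 5 genes that fell at least 8-fold at both temperatures. LOC130739052 had 36.7 normalised counts at low P and 340 at sufficient P in warm roots, and 107 at low P and 1394 at sufficient P at the favorable temperature. LOC130720825 had 47.8 at low P and 433 at sufficient P in warm roots, and 65.6 at low P and 693 at sufficient P at the favorable temperature. Their log2 folds in the authors' deposited tables differed between temperatures by less than the combined standard error: -3.21 (SE 0.57) and -3.70 (SE 0.56) for LOC130739052, and -3.18 (SE 0.49) and -3.40 (SE 0.61) for LOC130720825, high temperature before favorable. LOC130717532 and LOC130721311, also among the largest mean falls, stood at -2.40 (SE 0.49) and -2.40 (SE 0.48) in the heat and -3.65 (SE 0.31) and -3.36 (SE 0.57) at the favorable temperature on a log2 basis, per the authors' deposited tables.

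The 4 genes with the highest base means had moderate folds. LOC130720556 had the highest base mean, with 35554 normalised counts at low P and 14783 at sufficient P in warm roots, and 23427 at low P and 9826 at sufficient P at the favorable temperature. Its log2 fold change was 1.27 (SE 0.21) at the high temperature and 1.25 (SE 0.24) at the favorable temperature in the authors' deposited tables, so the phosphate response was almost the same size at both. LOC130717860 rose by 1.12 (SE 0.30) and 1.07 (SE 0.28) on the log2 scale at the high and favorable temperature in the authors' deposited tables. Of the same 4, LOC130723956 fell, with -1.24 (SE 0.39) and -1.73 (SE 0.53), and so did LOC130710750, with -1.30 (SE 0.23) and -1.91 (SE 0.39), at the high and favorable temperature in the authors' deposited tables.

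The phosphate fold was more often smaller at the high temperature. Among the 291 genes with 1 direction, the absolute fold was larger in the heat in 70 and larger at the favorable temperature in 221 (75.9%). The difference of log2 folds, high minus favorable, had a median of -0.40 among genes higher at low P (quartiles -0.70 and 0.01) and 0.40 among genes lower at low P (quartiles 0.05 and 0.79). For most genes this was small against its error, taken as the root of the summed squared standard errors. Among the 169 higher genes the 2 folds lay within 1 such error in 92, between 1 and 2 in 52 and farther apart in 25. Among the 122 lower genes these counts were 71, 34 and 17. Standard errors moved with this pattern: 249 of the 293 genes had the smaller standard error at the high temperature (median log2 ratio, high over favorable, -0.28). Larger errors let only larger folds be listed, and their part in the pattern was not tested.

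**Figure D3:**
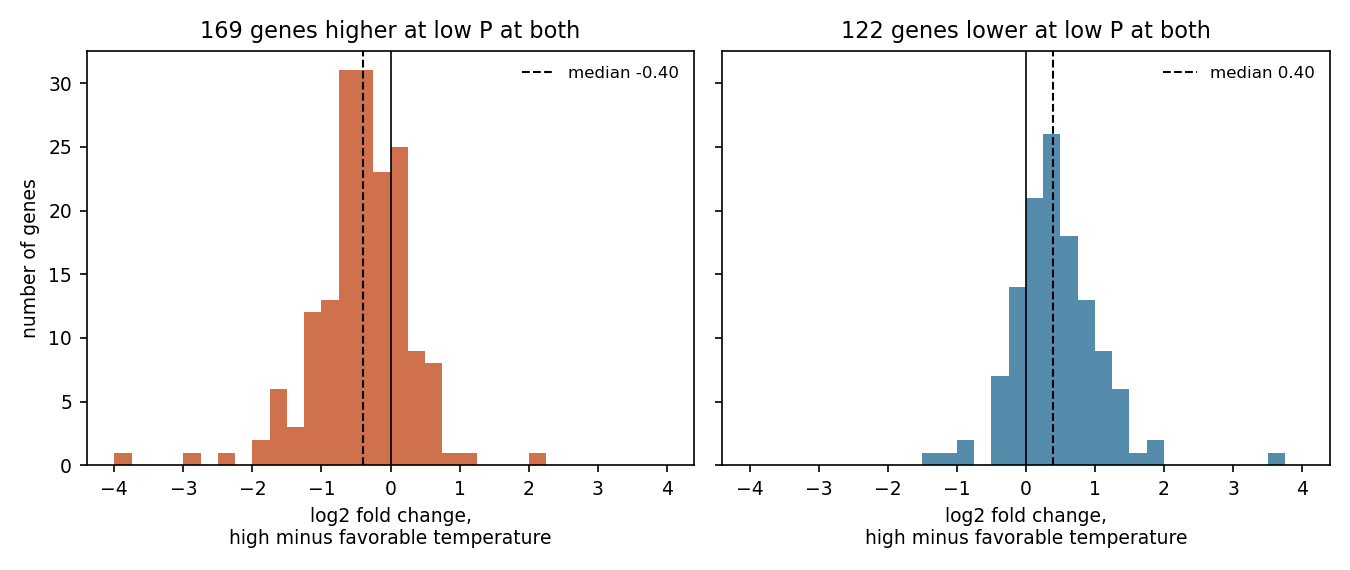
Number of genes by the difference of their log2 fold changes, high minus favorable temperature, for the 169 genes higher at low P (left) and the 122 genes lower at low P (right), with a dashed line at the median. The medians are -0.40 and 0.40, both on the side of a smaller fold at the high temperature.

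Genes with strong folds at one temperature tended to have strong folds at the other. Across the 169 higher genes the folds at the 2 temperatures had a Pearson r of 0.85 and a Spearman rho of 0.65, and across the 122 lower genes 0.60 and 0.56. Genes are not independent replicates, the points of a table share its 4 libraries, and both axes are cut off at 2-fold, so these values are descriptions. The 2 root comparisons have no library in common.

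Among the genes with the largest differences against their error, LOC130724304 was the most changed riser. Its low-P level was nearly equal in both tables, 432 normalised counts at the high temperature and 450 at the favorable one. The sufficient-P level was 90.3 in warm roots and 6.68 at the favorable temperature. These levels were derived from the base means and the deposited folds. The log2 fold change in the authors' deposited tables was 2.26 (SE 0.35) at the high temperature and 6.07 (SE 0.52) at the favorable temperature. The difference was -3.82 (combined SE 0.63). Its level of 6.68 was low for the set. Only 5 of the 169 risers and 1 of the 122 fallers had a derived level under 10 normalised counts in a table. LOC130739606 (4.74) and LOC130747357 (8.73), with large differences given below, were also among them. Each group held 2 libraries, so folds from such low levels need caution.

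LOC130718360 differed in another way. In warm roots it had 1001 normalised counts at low P and 481 at sufficient P, against 9490 at low P and 1193 at sufficient P at the favorable temperature. Across the separately normalised tables both of its levels were lower in the heat, the low-P level by more. Its log2 ratio of levels, high over favorable, was -3.24 at low P and -1.31 at sufficient P. Its log2 fold was 1.06 (SE 0.28) in the heat and 2.99 (SE 0.31) at the favorable temperature in the authors' deposited tables. LOC130739606, described above, had log2 folds that differed by -2.76 (combined SE 0.68), with a higher sufficient-P level in the high-temperature table.

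Among falling genes, LOC130747357 differed most. It stood at 65.8 normalised counts at low P and 165 at sufficient P in warm roots, and at 8.73 at low P and 266 at sufficient P at the favorable temperature. Its log2 fold change of -1.33 (SE 0.36) in the heat and -4.93 (SE 0.57) at the favorable temperature in the authors' deposited tables gave a difference of 3.60 (combined SE 0.67). LOC130723592 and LOC130717464 also fell less in the heat, with folds of -1.39 (SE 0.21) and -1.17 (SE 0.28) at the high temperature and -2.87 (SE 0.26) and -2.73 (SE 0.38) at the favorable temperature in log2 units, per the authors' deposited tables. LOC130723592 had 481 normalised counts at low P and 1265 at sufficient P in warm roots, and 395 at low P and 2884 at sufficient P at the favorable temperature. For LOC130717464 these levels were 524 and 1178 in warm roots and 502 and 3335 at the favorable temperature. In both genes the tables differed more at sufficient P than at low P.

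Few genes had the larger fold in the heat by more than 2 combined standard errors. They were LOC130748949 and LOC130728263 among the risers and LOC130743062 among the fallers, the last 2 singled out by that count with their values known. LOC130728263 rose by 1.74 (SE 0.21) in the heat and 1.03 (SE 0.25) at the favorable temperature, and LOC130743062 had -2.63 (SE 0.29) and -1.45 (SE 0.51), in log2 units, per the authors' deposited tables.

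LOC130749820 and LOC130745279 changed in opposite directions. LOC130749820 had 478 normalised counts at low P and 93.1 at sufficient P in warm roots, but 104 at low P and 564 at sufficient P at the favorable temperature. The authors' deposited tables list it at 2.36 (SE 0.39) in the heat and -2.44 (SE 0.38) at the favorable temperature. LOC130745279 had 132 at low P and 306 at sufficient P in warm roots, but 323 at low P and 94.3 at sufficient P at the favorable temperature. Its log2 fold change was -1.21 (SE 0.31) in the heat and 1.78 (SE 0.37) at the favorable temperature in the authors' deposited tables. In both genes the 2 higher levels were of like size, and the supply at which they occurred was exchanged between temperatures.

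The derived levels were also compared between the tables. The tables were normalised separately, so a level set across them can carry a shift that is common to all genes and both supplies. Such a shift cancels in the contrast between rising and falling genes. The levels were still computed from the folds that chose the genes and set their direction. How the contrast differs between the supplies therefore largely restates the smaller folds at the high temperature given above. It is a description and was not tested. Among the 169 genes higher at low P, the low-P level was lower in the high-temperature table in 107 and the sufficient-P level was higher there in 117. Median log2 ratios, high over favorable, were -0.19 for low P and 0.22 for sufficient P. Among the 122 genes lower at low P, the low-P level was lower in the high-temperature table in 77 and the sufficient-P level was lower in 100. Here the median log2 ratios were -0.21 at low P and -0.64 at sufficient P. The median of the rising genes minus that of the falling genes was thus 0.03 at low P and 0.85 at sufficient P. This rests on the orientation read for the tables: turned round, it would be -0.85 at low P and -0.03 at sufficient P.

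**Figure D4:**
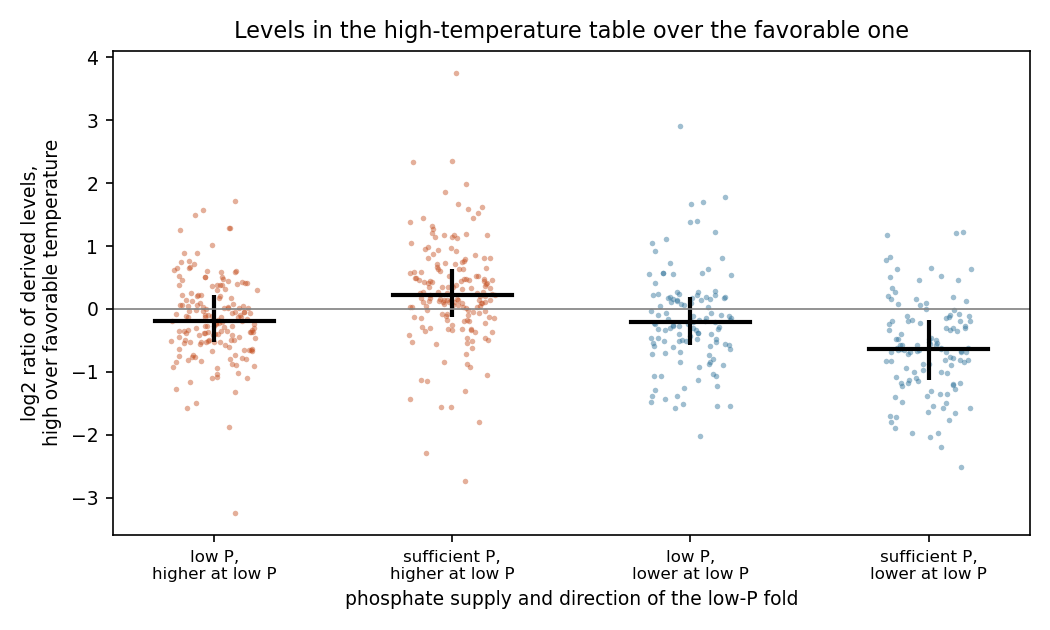
Log2 ratio of each gene's derived level in the high-temperature table over that in the favorable-temperature table (vertical axis), at low P and at sufficient P, for genes higher (left pair) and lower (right pair) at low P; points are genes, horizontal bars medians and vertical bars quartiles. At low P the medians are -0.19 and -0.21, while at sufficient P they are 0.22 for genes higher at low P and -0.64 for genes lower at low P.

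In nearly all of the genes the derived group levels of the 2 supplies stood apart across the separately normalised tables. These are levels per group, not values of libraries. In 164 of the 169 risers both low-P levels stood above both sufficient-P levels, and in 120 of the 122 fallers both low-P levels stood below both sufficient-P levels. Every gene differed at least 2-fold within each table by the rule, and no such count was made for other listed genes. Nothing is therefore read from these counts. A shift between the tables that is common to all genes could change which genes are exceptions. The exceptions among the risers were LOC130718360, LOC130721488, LOC130728225, LOC130730122 and LOC130746207, and among the fallers LOC130731059 and LOC130739496. All 7 are named because of these counts. LOC130730122, for instance, had 1523 normalised counts at low P and 680 at sufficient P in warm roots, and 627 at low P and 295 at sufficient P at the favorable temperature.

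All 293 genes are protein-coding in the RefSeq gene table of assembly LjGifu_v1.2, and their order along its chromosomes was not used to choose them. The plants were MG-20, and the order of the genes in the MG-20 genome was not examined. In the order of LjGifu_v1.2, 15 pairs of the 293 genes lay with at most 1 protein-coding gene between them. Of these pairs, 9 were directly adjacent. The 30 genes of these pairs included 8 pairs that fell together and 3 that rose together at both temperatures. Another 3 pairs held a rising and a falling gene, and in 1 pair the gene LOC130745279, with opposite directions, lay near the rising LOC130748099. No like count was made for pairs of other listed root genes, so these pair counts and their directions are a description. Whether adjacent genes are near-identical copies whose reads could be split between them was not examined here.

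LOC130747357 and LOC130747358 were the adjacent pair with the deepest falls. LOC130747358 had 63.2 normalised counts at low P and 531 at sufficient P in warm roots, and 133 at low P and 2085 at sufficient P at the favorable temperature. At the high temperature LOC130747357 had a log2 fold of -1.33 (SE 0.36) and LOC130747358 one of -3.07 (SE 0.52), per the authors' deposited table. At the favorable temperature the pair lay closer, at -4.93 (SE 0.57) and -3.97 (SE 0.56), per the authors' deposited table.

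Among the other adjacent pairs, LOC130721311 and LOC130718053 stood at log2 folds of -2.40 (SE 0.48) and -1.99 (SE 0.44) in the heat and -3.36 (SE 0.57) and -3.44 (SE 0.63) at the favorable temperature in the authors' deposited tables. LOC130734112 and LOC130734113 rose by 1.23 (SE 0.36) and 1.07 (SE 0.35) in the heat and by 2.41 (SE 0.47) and 1.91 (SE 0.34) at the favorable temperature in log2 units, per the authors' deposited tables. By contrast, the adjacent LOC130723587 and LOC130723592 went apart at both temperatures: 2.70 (SE 0.23) and -1.39 (SE 0.21) in the heat, and 2.26 (SE 0.30) and -2.87 (SE 0.26) at the favorable temperature, in log2 units, per the authors' deposited tables. LOC130745707 and LOC130745708 did likewise, the one lower and the other higher at low P.

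**Figure D5:**
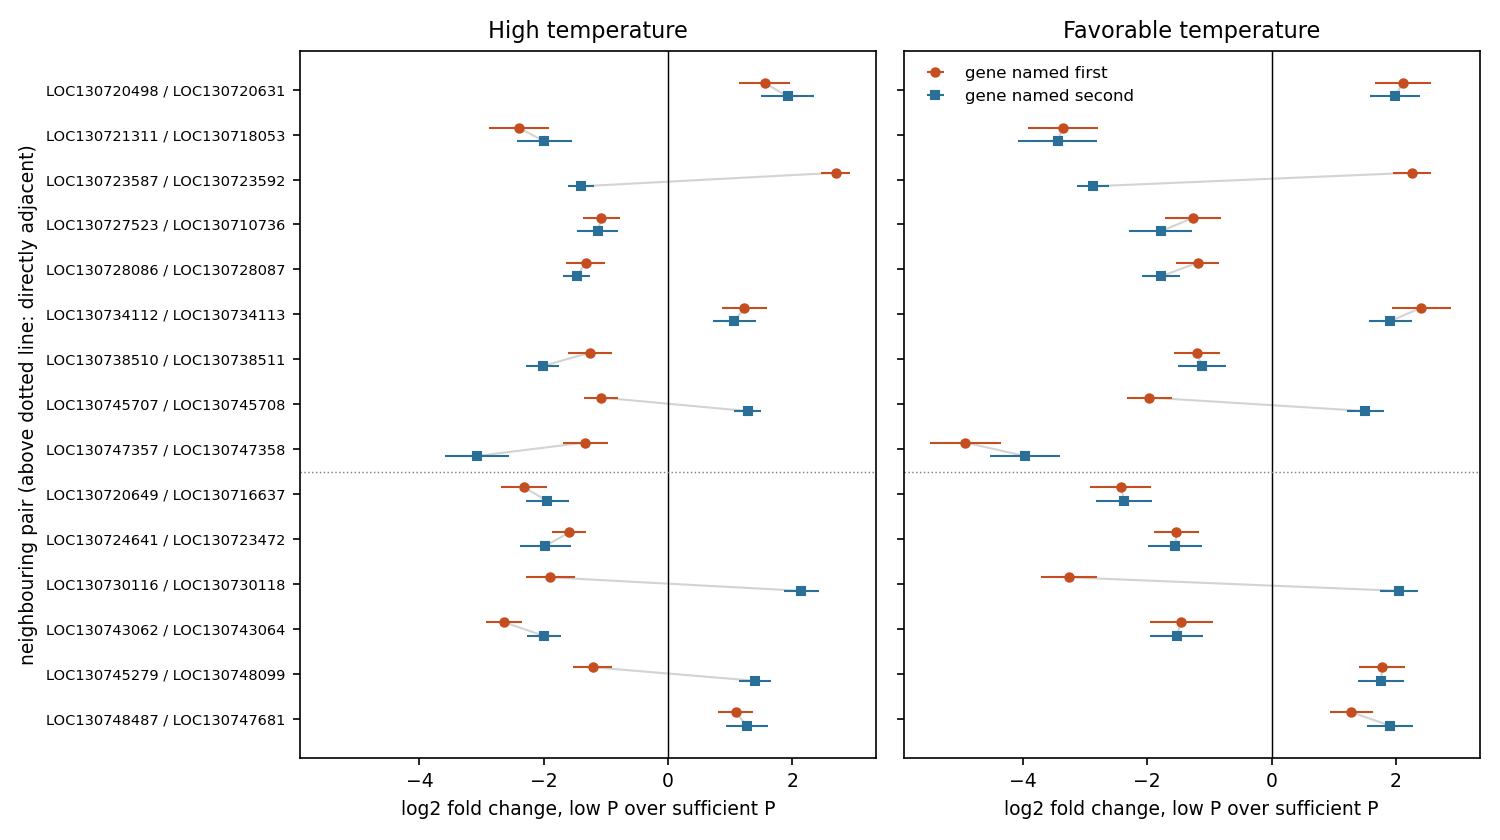
Log2 fold change of low P over sufficient P with the authors' standard error for both genes of the 15 neighbouring pairs, at the high temperature (left) and the favorable temperature (right); pairs above the dotted line are directly adjacent among protein-coding genes. Of the 9 adjacent pairs, 7 went the same way at both temperatures, and no like share was computed for other genes.

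Genes directly next to the 293, leaving out the 293 themselves, numbered 562. Of these, 2.14% were listed in the root comparison at the high temperature and 7.65% in that at the favorable temperature. Among all 32459 protein-coding genes outside the set, the shares were 1.61% and 5.40%. The shares of the neighbours rest on 12 genes at the high temperature and 43 at the favorable one. Both the neighbours and all genes outside the set include genes that roots may not express. No test was made of this difference.

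The 293 genes stood beside 167 genes that were listed in both root comparisons and in at least 1 shoot comparison, and 82 that were in neither shoot comparison but had a lower base mean. The share higher at low P at both temperatures was close in all 3 sets, at 57.7% in the 293 genes, 59.3% in the 167 and 58.5% in the 82. Median absolute log2 folds of the 293 genes were 1.47 at the high temperature and 1.91 at the favorable one. They were 1.74 and 2.23 in the genes also listed in shoots, and 2.41 and 2.84 in those of low base mean. At least 4-fold changes at both temperatures were seen in 22.5% of the 293 genes, 32.9% of the 167 and 64.6% of the 82. Median standard errors were alike in the 293 genes (0.31 and 0.39) and in the 167 genes (0.33 and 0.41), and larger in the 82 (0.57 and 0.61), high temperature before favorable. The larger absolute fold was that at the favorable temperature in 75.9%, 79.6% and 68.8% of same-direction genes in the 3 sets. These are descriptions, because listing and base mean defined the sets.

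Genes on both sides of the base mean limit were as follows. LOC130723373 was just inside, with base means of 107 at the high temperature and 280 at the favorable one, as was LOC130710263, with 217 and 109 in the authors' deposited tables. LOC130729972, with 98.8 and 122, and LOC130715571, with 98.0 and 109, were just outside in the same tables, the authors' deposited ones. Log2 folds of LOC130729972 were 2.90 (SE 0.43) in the heat and 2.61 (SE 0.55) at the favorable temperature in the authors' deposited tables. Of the genes just inside, LOC130723373 had 2.10 (SE 0.38) in the heat and 3.75 (SE 0.44) at the favorable temperature, per the authors' deposited tables. Near the authors' own limit, 47 of the 293 genes had an adjusted p of at least 0.01 at the high temperature and 36 at the favorable temperature.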

How the data were processed

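Poly(A) RNA of 16 libraries in 8 groups was sequenced from directional libraries, per the labels' protocols. DESeq2 1.44.0 and RSEM 1.3.3 are named in the submitters' processing notes, beside FastQC 0.14.0 and Trimmomatic 0.39.2. Build, annotation and settings were not given in the sources used here. Per the file headers, the 4 tables the authors deposited are DESeq2 comparisons. The authors' base mean averages size-factor-scaled counts over both compared groups. The deposited log2 fold change has its standard error on the log2 scale. The deposited Wald statistic is a score equal to their ratio. Each gene's p-value, raw and adjusted, was deposited too. Every listed gene had an adjusted p under 0.05 and at least a 2-fold change.

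No values per library exist in these tables, so depth is unknown and no gene was tested anew. Levels were derived from base mean and fold for equal groups. The number of genes tested was recovered by dividing the top gene's adjusted p by its raw p. The recovery of the number tested was checked on simulated data. The level formula was checked only on a made-up pair of levels, not on counts per library. All 293 gene identifiers matched the RefSeq table of LjGifu_v1.2, used for symbols and gene order alone. Calculations used Python 3.11.15, pandas 2.3.3 and numpy 2.4.6. Named genes had the largest mean folds, highest base means, largest fold differences against their error, opposite signs or values at the base mean limit. The genes and these choices were made with earlier results of these data known. Planned gene lists, promoter motifs and protein families were not analysed here.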

Additional observations from a re-analysis of the deposited data

Results flagged for a closer look

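The phosphate effect went opposite ways at the high and the favorable temperature in LOC130749820 and LOC130745279, which is what brought them here. On the log2 scale the fold at the high temperature minus that at the favorable one was 4.80 (combined SE 0.55) for LOC130749820 and -2.99 (combined SE 0.48) for LOC130745279. Neither difference was tested, because both folds had been used to choose the genes.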

How the results depend on the processing

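Of 37 recomputed values, 31 stayed within 1.5 times, within the counting interval of a share or within the combined standard error of a fold difference, and 6 moved. Requiring at least 4-fold changes at both temperatures left 66 genes, with 43 higher, 22 lower and 1 opposite (LOC130749820), and an adjusted p under 0.01 in both tables left 76 lower genes. Directly adjacent neighbours alone made 9 pairs. The fold limit and the adjusted p limit keep fewer genes by construction. The share of genes whose absolute fold was larger at the favorable temperature ran from 74.8% to 78.6% over the 5 alternatives. No paired analysis was possible because only results per group were in the tables. Leaving out replicates and other count tools could not be run either. Alternatives for promoter motifs, protein families and gene lists were not run. Depth limits cannot be stated, since depth is unknown.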
